A study of Mus musculus with 5 samples.

Results

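The cells described here are the endothelial cells, the inner lining of blood and lymph vessels, recovered among the cells of newborn mouse growth plates. They were chosen by their own counts of unique molecular identifiers (UMIs, tags that count each captured RNA molecule once). A member had at least 4 UMIs of Pecam1, Cdh5 and Emcn together with at least 2 of these 3 genes detected, no UMI of the leukocyte gene Ptprc, and fewer than 200 Col2a1 UMIs per 10000. In all, 533 of the 82516 cells kept (0.646%) met this rule, and Kdr, which the rule did not use, had a UMI in 495 of them. The label was checked against genes the rule did not use: beside Kdr, Cldn5 had a UMI in a mean of 64.6% of a pup's members and Flt1 in 90.1%, and the 7-gene macrophage list held 0 to 10 UMIs in all members of a pup, although the rule's Ptprc limit bears on that list. In all, 109 members (20.5%) fell in sub-clusters that also carried genes of other cell types, described below.

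The cells came from 5 littermate pups given as strain C57BL/6J, 2 labelled WT (pups 1 and 2) and 3 labelled Mutant (pups 3, 4 and 5). By the study's methods the Cre line arose on a B6SJLF1 background and was crossed to C57BL/6J 2 times. The pups were labelled postnatal day 5, whereas the study's methods give an earlier day. Mutant pups carried 1 copy of a conditional Trpv4 p.R594H allele, an activating change in a calcium channel, switched on by a Col2a1-Cre transgene that acts in chondrocytes, so the endothelial cells were not the targeted cell type. The labels name chondrocytes as the cell type of every sample and the femoral and tibial growth plate cartilage as the tissue. The epiphyses were digested with collagenase I and then collagenase II, and each pup gave 1 library.

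Endothelial cells form the vessels that invade hypertrophic cartilage during endochondral ossification. Vascular endothelial growth factor (VEGF), made by hypertrophic chondrocytes, acts through the receptor Kdr, while Flt1 binds the same ligand as a decoy. Notch, angiopoietin-Tie and bone morphogenetic protein signals help set whether an endothelial cell becomes a sprouting tip, an artery, a vein or a lymphatic vessel.

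Promoters of the endothelial genes are shown first, because many endothelial genes are known targets of ETS transcription factors, which bind a GGAA core. The windows hold the 250 bases before the gene start in RefSeq on build GRCm38.p6, 5′ to 3′ on the gene's strand, with AGGAAG or CGGAAG (searched on both strands, so also as CTTCCT or CTTCCG) in capitals. Emcn, a gate gene (chr3:137340828-137341077, plus strand), Kdr (chr5:75978456-75978705, minus strand), Flt1 (chr5:147726012-147726261, minus strand) and Selp, the venous adhesion receptor P-selectin (chr1:164115014-164115263, plus strand), are given because the results below turn on them or their group.
Emcn: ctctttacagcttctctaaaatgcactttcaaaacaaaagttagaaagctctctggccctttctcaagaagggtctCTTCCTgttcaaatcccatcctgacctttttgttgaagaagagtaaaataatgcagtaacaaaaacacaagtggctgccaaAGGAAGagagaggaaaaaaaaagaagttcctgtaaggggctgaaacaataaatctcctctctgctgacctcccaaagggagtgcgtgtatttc
Kdr: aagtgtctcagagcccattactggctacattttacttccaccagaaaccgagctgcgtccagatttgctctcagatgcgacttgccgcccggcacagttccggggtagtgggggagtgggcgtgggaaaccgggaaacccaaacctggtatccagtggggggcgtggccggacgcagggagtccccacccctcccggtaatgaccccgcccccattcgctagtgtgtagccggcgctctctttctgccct
Flt1: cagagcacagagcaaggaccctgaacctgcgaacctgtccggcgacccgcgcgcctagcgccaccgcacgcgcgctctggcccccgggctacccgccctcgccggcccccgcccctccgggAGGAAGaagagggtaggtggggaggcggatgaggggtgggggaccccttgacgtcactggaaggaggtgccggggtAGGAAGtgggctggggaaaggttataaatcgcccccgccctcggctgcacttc
Selp: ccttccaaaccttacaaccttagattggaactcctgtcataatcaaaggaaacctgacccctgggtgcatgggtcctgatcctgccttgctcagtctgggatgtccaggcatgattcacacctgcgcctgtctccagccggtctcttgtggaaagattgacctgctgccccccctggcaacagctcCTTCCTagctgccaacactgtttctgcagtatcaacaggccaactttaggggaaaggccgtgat
The Emcn and Flt1 windows each held 2 matches and the Selp window 1, and the Kdr window held none. Of the 33 gate and leading endothelial genes, 18 had a window, and 13 of these 18 (72.2%) held AGGAAG, against 32.3% of the 27025 genes with a window. CGGAAG was in 1 of the 18 (5.56%) and in 15.3% of all genes. A gene with more than 1 window counted if any of them held a match. By GENCODE M21, up to 250 bases of a window lay inside transcripts of Adgrf5, Egfl7 and Rasgrp3, and 212 for Tie1. Each of these is among the 13, and such overlap was not counted for the genes at large. A match is a run of letters and not a measured binding site.

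The deposited libraries held 117746735 to 183322632 UMIs. Members had a median of 6978 and 10037 UMIs in WT pups 1 and 2, and 6761, 5115 and 5104 in mutant pups 3, 4 and 5, so the mutant cells were shallower. Any pair of pups shared 3 to 7 cell barcodes among the cells kept and none among the members. Xist, the X-inactivation RNA, had a UMI in 87.2% and 84.5% of members of mutant pups 3 and 4 and in none of the other pups, whereas the Y-linked Ddx3y was detected in 68.1% and 71.6% of WT members and in 52.9% of those of mutant pup 5. Genotype therefore overlapped with sex, and values without pups 3 and 4 are given beside the shares, the called genes and several of the gene lists.

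Members made up 0.622% of the cells kept in WT pup 1 (94 of 15121, 95% Wilson interval 0.508 to 0.760%) and 0.851% in WT pup 2 (141 of 16561, 0.722 to 1.00%). In the mutants they made up 0.941% in pup 3 (180 of 19133, 0.814 to 1.09%), 0.470% in pup 4 (84 of 17887, 0.380 to 0.581%) and 0.246% in pup 5 (34 of 13814, 0.176 to 0.344%). Intervals cover counting error only. The mutant pups spanned the range, holding both the highest and the 2 lowest shares. The means were 0.737% ± 0.163 (SD, n = 2) in WT and 0.552% ± 0.355 (SD, n = 3) in mutants, a difference of -0.184 percentage points that did not exceed the spread between pups (2-sided exact permutation test, p = 0.5). Without mutant pups 3 and 4 the difference was -0.490 percentage points. With 2 against 3 pups, 10 groupings exist and the smallest p they allow is 0.1. Chondrocytes made up 48.6% of the cells kept in mutant pup 3, which had the most endothelial cells, and 73.4% in mutant pup 5, which had the fewest, and the part of the dissected tissue in these shares was not tested.

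**Figure D1:**
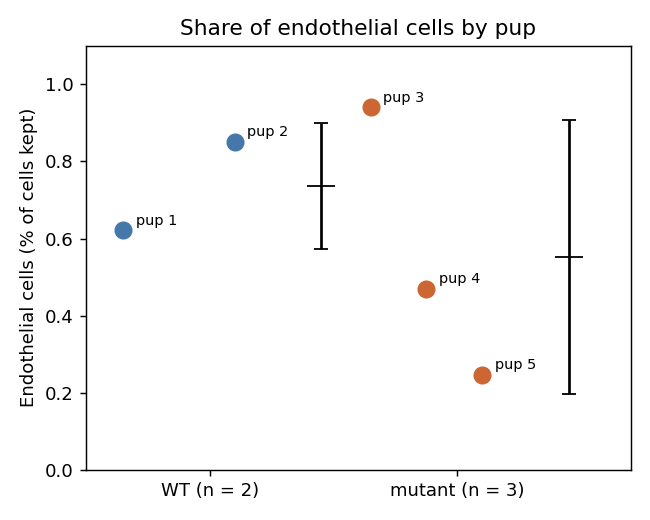
Endothelial cells as a percent of the cells kept, 1 point per pup (WT n = 2, mutant n = 3), with black bars for mean ± SD. The mutant pups run from 0.246 to 0.941% and span both WT pups.

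The gate cut a population that was mostly clear of it. Of the 533 members, 507 had 10 or more UMIs of the gate genes. Just inside, 14 members had 4 or 5, of which 4 had a Kdr UMI; just outside, 10 cells had 3 UMIs, of which 2 had one. The Col2a1 limit bore more weight, since 20 cells that passed every other criterion had 200 to 400 Col2a1 UMIs per 10000 (15 with a Kdr UMI) and 41 had 400 or more (28 with a Kdr UMI). Another 12 cells were set aside for a Ptprc UMI. No doublet caller was run.

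Vascular identity genes were high in every pup (CPM, a gene's UMIs per 1000000 UMIs of the members of a pup). Because the members were chosen by such counts, differences from other cells are a description with no test. Pecam1, an adhesion molecule of endothelial junctions, stood at 2514 and 2349 CPM in the WT pups and 2566, 2866 and 2362 CPM in the mutants, against a mean of 4.24 CPM in all other cells. Cdh5, the cadherin of endothelial junctions, averaged 1680 CPM ± 217 (SD, n = 5) against 1.78, and Emcn, a sialomucin, 387 CPM ± 35.5 (SD, n = 5) against 0.920. The gate itself conditions the levels of these 3 genes in members.

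Among genes at 100 CPM or more in members, those outside the rule with the largest excess over all other cells on the log2(CPM + 1) scale were Cldn5, Kdr, Ptprb, Myct1, Fabp4, Mmrn2, Sele, Selp, Tie1 and Aplnr. Cldn5, a claudin of tight junctions, had a log2 ratio of 8.81 ± 0.48 (SD, n = 5 pups), Fabp4, a fatty acid carrier of capillaries, 8.23 ± 0.42, and Aplnr, the apelin receptor, 7.89 ± 0.25. Ptprb (VE-PTP, a phosphatase that restrains Tek), Mmrn2, a matrix protein that binds Cd93, and Tie1, an orphan receptor, also exceeded all other cells by more than 8 on this scale in the mean. The order of these genes depends on the 1 CPM added, which lowers the ratio of genes that are rare in other cells. None of the 18 core endothelial list genes was at 0 in the members.

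VEGF receptors were present throughout. Kdr stood at 777 and 678 CPM in the WT pups and 912, 999 and 901 CPM in the mutants, and had a UMI in 91.2 to 93.9% of members. Macrophages, taken for comparison, were other cells with UMIs of the C1q genes and of Ptprc, with no Col2a1 limit. In these macrophages, which should lack Kdr, 4.04% of cells had a UMI. Flt1 averaged 815 CPM ± 147, Nrp1, a co-receptor, 334 CPM ± 30.8, and Flt4, the receptor of lymphatic growth factors, 102 CPM ± 25.5 (SD, n = 5 for each).

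Of the angiopoietin receptors, Tie1 averaged 403 CPM ± 54.3 and Tek 162 CPM ± 21.7, while the ligand gene Angpt2 averaged 32.8 CPM ± 12.9. In the Notch pathway the receptors Notch1 and Notch4 averaged 184 CPM ± 30.6 and 79.4 CPM ± 12.3, and the ligand Dll4 ranged from 100 CPM in WT pup 2 to 324 CPM in mutant pup 5. Among bone morphogenetic protein and TGF-beta components, Tgfbr2 averaged 356 CPM ± 70.8, Bmpr2 326 CPM ± 65.7 and the co-receptor Eng 265 CPM ± 39.8. All SDs are over 5 pups.

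Endothelial cells also send signals to their neighbours. Kitl, the stem cell factor, averaged 615 CPM ± 84.5 against 12.4 CPM in all other cells, and Pdgfb, which recruits pericytes, 187 CPM ± 53.2 against 1.54. Cxcl12, a chemokine that retains blood progenitors, averaged 330 CPM ± 48.5 but had a UMI in 31.2% of members. The basement membrane chain Col4a1 averaged 4188 CPM ± 534 against 33.8 CPM in chondrocytes and 3541 CPM in pericytes.

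**Figure D2:**
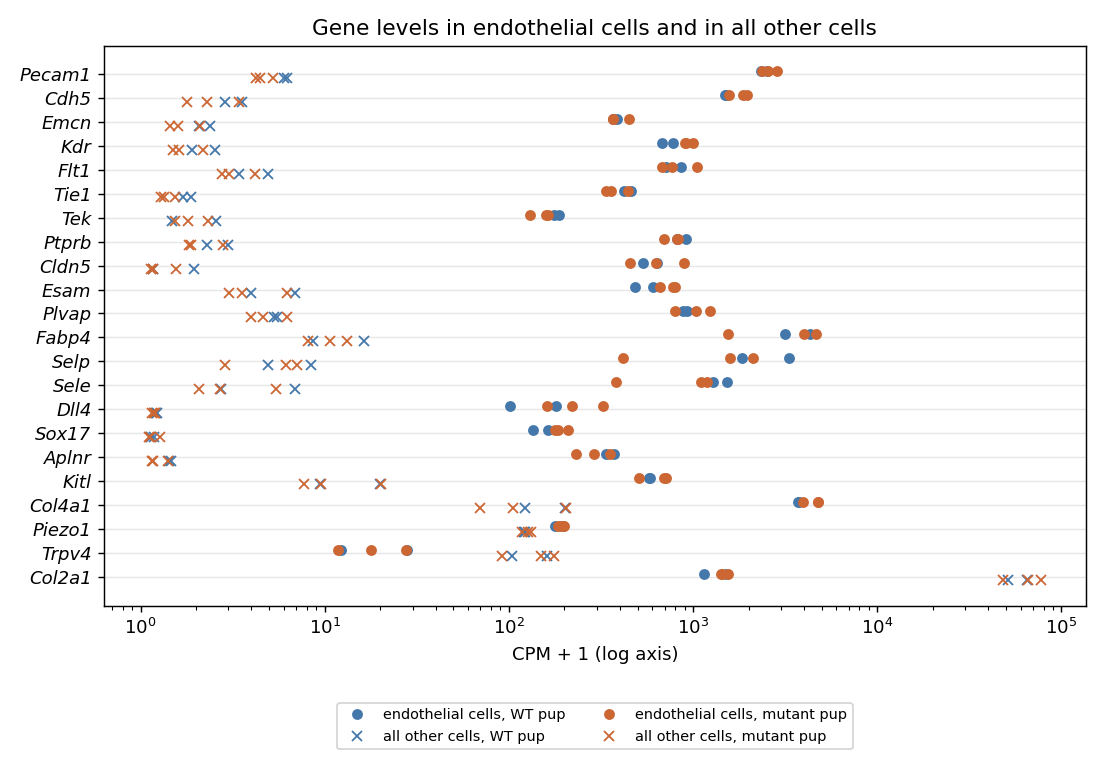
CPM + 1 (log axis) of 22 genes in endothelial cells (circles) and in all other cells (crosses), 1 symbol per pup, blue for WT and orange for mutant. Circles and crosses separate widely for Pecam1 through Kitl, come close for Piezo1, and change order for Trpv4 and Col2a1.

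Trpv4 itself (GENCODE M21, GRCm38, chr5:114622152-114658421) was sparse in these cells. Members held 23 and 17 Trpv4 UMIs in WT pups 1 and 2, and 15, 9 and 6 in mutant pups 3, 4 and 5, which gives 27.1, 11.3, 10.8, 16.8 and 26.6 CPM. These levels were 7.44 to 12.7% of the chondrocyte level in the same pup, and in every pup below the macrophage level, which was 10.7 to 26.0%. A Trpv4 UMI was seen in 7.14 to 15.96% of members of a pup and in a mean of 17.3% of macrophages, which had more UMIs per cell in 4 of 5 pups. The Col2a1 limit of the rule also takes out cells that carry chondrocyte RNA, so chondrocyte genes give no independent background for Trpv4 in members, and the part of chondrocyte RNA in its level was not tested. The arterial-like cells described below held 43.2 CPM, the most of any sub-cluster. Counts per gene cannot tell the mutant allele from the WT allele. Piezo1, another mechanically gated calcium channel, averaged 190 CPM ± 8.94 (SD, n = 5), 153 to 174% of the chondrocyte level. Its spread between pups was small.

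Clustering the 533 members gave 11 sub-clusters, whose genes are a description, since the clusters were built from them. Their number depends on the resolution chosen (0.8): a resolution of 0.5 gave 8 and one of 1.2 gave 14, and so the shares below depend on it too. A marker stood out where its level was higher by at least 1 on the log2 scale than in the other members and 10% or more of the cells had a UMI. A sub-cluster was named where at least 3 markers of a list stood out, no fewer than the list's remaining genes, and at least 1 was among the 10 leading genes by ratio. Sub-cluster 1 (92 cells) was venous-like: 5 of 8 venous list genes stood out, with Selp at 8620 CPM, against 679 CPM in the other members, Ackr1, a chemokine-binding receptor of venules, at 688 CPM against 19.3, and Vwf at 303 CPM against 34.7. Sub-cluster 4 (58 cells) was arterial-like, with all 10 arterial genes higher: Sema3g reached 980 CPM against 35.4 and the gap junction gene Gja5 298 CPM against 8.47. Sub-cluster 10 (19 cells) was lymphatic-like, with all 7 lymphatic genes higher, among them Ccl21a, a chemokine that guides dendritic cells, at 5935 CPM against 19.2 and Prox1, the lymphatic master regulator, at 1134 CPM against 18.03. Sub-cluster 7 (40 cells) held dividing cells, with all 12 cell cycle genes higher and Top2a at 1121 CPM against 115.

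4 sub-clusters stayed unnamed; in sub-clusters 2, 6 and 8 no gene of the list that stood out was among the 10 leading genes. Sub-cluster 2 (92 cells) held 6 of 10 tip and angiogenic genes higher, including Apln (253 CPM) and Esm1 (304 CPM), secreted products of sprouting tips. Sub-cluster 5 (56 cells) carried Fabp4 at 9911 CPM and Cd36, a fatty acid transporter, at 2820 CPM; its top gene by ratio, Cd74, came from 1.79% of its cells. Sub-cluster 6 (41 cells) held 4 of 7 capillary and lipid genes higher, with Spry1, a feedback inhibitor of growth factor signals, detected in 92.7% of cells. Sub-cluster 8 (26 cells) held 4 of 6 sinusoidal genes higher, with Flt4 in 88.5% of cells, Inhbb, an activin subunit, in 84.6% and Kcne3 in 76.9%, while Mmp13, its first gene by ratio, had a UMI in 3.85%.

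Another 3 sub-clusters carried markers of other cell types beside the endothelial ones and are called mixed. In sub-cluster 3 (73 cells), called fibroblast and bone after the list of that name, 6 of 8 genes of that list and 10 of 11 chondrocyte list genes stood out, with Col1a1 at 51893 CPM against 1301. The list's bone genes Ibsp and Bglap did not stand out, and Ibsp had a UMI in 8.22% of these cells. Prg4, Fmod and Tnmd, outside the list, were also among the leading genes. Sub-cluster 9 (24 cells) had the hemoglobin gene Hba-a1 at 63640 CPM against 1851, and sub-cluster 11 (12 cells) had the pericyte gene Rgs5 at 4310 CPM against 114, with a median UMI count 2.05 times that of all members. Together they held 109 members, 15.96% and 27.7% of those of WT pups 1 and 2 and 20%, 17.9% and 11.8% of those of mutant pups 3, 4 and 5. Kdr was nonetheless detected in 78.1 to 100% of the cells of each mixed sub-cluster.

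**Figure D3:**
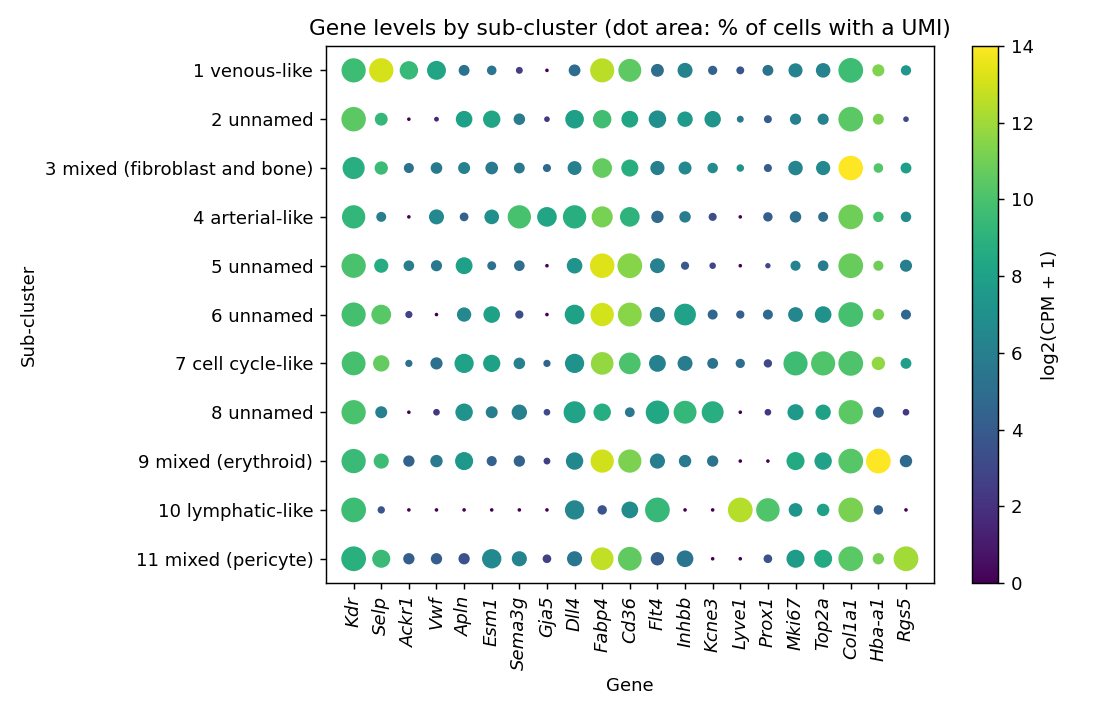
Levels of 21 genes (columns) in the 11 sub-clusters (rows), with color for log2(CPM + 1) and dot area for the percent of cells with a UMI. Kdr fills its column, whereas Selp, Sema3g, Lyve1, Top2a, Hba-a1 and Rgs5 each mark a sub-cluster of their own. Col1a1 had a UMI in 98.6% of sub-cluster 3 cells and in 99.8% of the other members, so only its level sets sub-cluster 3 apart.

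Venous-like cells made up 17.0% and 14.9% of members in the WT pups and 17.2%, 25.0% and 8.82% in the mutants, and arterial-like cells 17.0%, 9.93%, 8.89%, 9.52% and 11.8% in pups 1 to 5. Groups overlapped in both. Lymphatic-like cells numbered 4 and 9 in the WT pups and 2, 0 and 4 in the mutants; the 0 of 84 in mutant pup 4 allows a share of up to 3.57%. Lyve1, a hyaluronan receptor of lymphatic vessels, followed them, at 285 and 373 CPM in the WT pups and 38.9, 0 and 1163 CPM in the mutants.

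**Figure D4:**
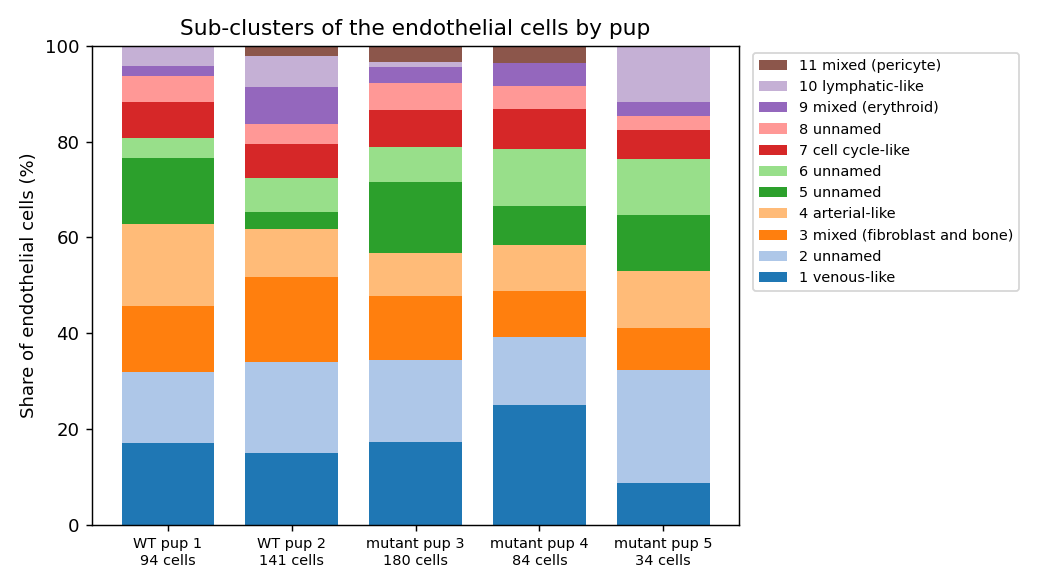
Percent of each pup's endothelial cells in each of the 11 sub-clusters (stacked bars, 34 to 180 cells a pup). The venous-like share runs from 8.82 to 25.0%, and the lymphatic-like share from 0 to 11.8%, with both extremes of each in mutant pups.

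The genotype comparison asked whether endothelial cells differed where the activated channel was expressed in the neighbouring chondrocytes. UMIs were summed over the members of each pup and tested across pups with edgeR's quasi-likelihood test, with Benjamini-Hochberg adjustment over 8449 genes. In all, 7 genes (0.0829% of those tested) passed an adjusted p of 0.05, of which Spry1, Apln and Ier5l rose in mutants and Ackr1, Itgb4, Cd24a and Nupr1 fell. An unadjusted p under 0.05 was reached by 472 genes. The list genes held 2 of the 7 among 183 tested (1.09%).

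Ackr1 (chr1:173331886-173333750) stood at 171 and 261 normalized CPM in the WT pups and 71.2, 55.4 and 80.5 in the mutants. Normalized CPM is taken over the genes tested and scaled by edgeR's TMM factors. Every mutant pup lay below both WT pups, and the log2 change was -1.68 (SE 0.22, adjusted p = 0.00599). The UMIs came from 18, 26, 18, 11 and 2 cells of pups 1 to 5. Within the venous-like cells alone Ackr1 stood at 695 and 1155 CPM in the WT pups and 311, 203 and 892 CPM in the mutants, the last on 3 cells, so there the groups overlapped. Selp, the other strong venous gene, was at 1874 and 3393 normalized CPM in the WT pups and 1643, 2156 and 420 in the mutants, with adjusted p = 0.993.

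Itgb4 (chr11:115974709-116008412), an integrin chain that binds laminin, had 117 and 93.5 normalized CPM in the WT pups and 38.9, 40.1 and 31.3 in the mutants. Its log2 change was -1.45 (SE 0.23, adjusted p = 0.0316), with no overlap between groups. It had a UMI in 44.7% and 44.0% of WT members and 19.4%, 19.0% and 11.8% of mutant members, and was strongest in arterial-like (144 CPM) and venous-like (129 CPM) cells.

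Cd24a (chr10:43578284-43584265), a small glycosylated surface protein, had 251 and 332 normalized CPM in the WT pups and 129, 122 and 148 in the mutants (log2 change -1.16, SE 0.19, adjusted p = 0.0316). The groups were again separate. The lymphatic-like cells (1180 CPM) and the mixed erythroid sub-cluster (868 CPM) held the most Cd24a, and all other cells of the pups held 371 to 572 CPM, above the members. The part of free or neighbouring RNA in its level was not tested.

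Nupr1 (chr7:126623249-126630861), a stress-induced nuclear protein, had 64.7 and 66.9 normalized CPM in the WT pups and 24.7, 19.1 and 26.8 in the mutants (log2 change -1.49, SE 0.27, adjusted p = 0.0493). No mutant pup reached a WT value. All other cells held 83.9 to 124 CPM. The mixed fibroblast and bone sub-cluster held the most of any sub-cluster (98.0 CPM). Without the mixed sub-clusters the log2 change was -1.38 (adjusted p = 0.122). With the Col2a1 limit at 100 UMIs per 10000 it was -1.41 (adjusted p = 0.0848).

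Spry1 (chr3:37639947-37644598) had 132 and 175 normalized CPM in the WT pups and 293, 424 and 376 in the mutants, a log2 change of 1.22 (SE 0.20, adjusted p = 0.0340). The mutant pups all lay above both WT pups. Its share of members with a UMI was 50% and 56.0% in WT and 59.4%, 57.1% and 70.6% in mutants, and in all other cells it stood at 18.6 to 36.5 CPM with no separation of the groups. Sub-cluster 6, where most cells had a Spry1 UMI, held 4.26% and 7.09% of members in the WT pups. In the mutants it held 7.22%, 11.9% and 11.8%. These were 4, 10, 13, 10 and 4 cells of pups 1 to 5, and their part in the Spry1 level was not tested.

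Apln (chrX:48025146-48034853), the ligand of Aplnr and a product of tip cells, had 73.1 and 81.2 normalized CPM in the WT pups and 162, 159 and 228 in the mutants (log2 change 1.18, SE 0.20, adjusted p = 0.0380). WT and mutant values did not overlap. In sub-cluster 2, where tip genes were high, it stood at 113 and 216 CPM in the WT pups and 358, 307 and 243 CPM in the mutants, on 10, 44, 57, 19 and 8 UMIs of pups 1 to 5, too few in mutant pup 5 to set it apart from WT pup 2. In the venous-like cells the groups overlapped, on 1 to 13 UMIs a pup. Over all members, its log2 change was 0.93 without the mixed sub-clusters (adjusted p = 0.0806) and 1.11 with a gate of at least 6 UMIs (adjusted p = 0.107).

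Ier5l (chr2:30471537-30474219), an immediate early response gene relative, had 33.6 and 35.5 normalized CPM in the WT pups and 97.4, 74.5 and 93.9 in the mutants (log2 change 1.36, SE 0.24, adjusted p = 0.0445). All 3 mutant pups exceeded the WT pups. It was detected in 22.3% and 24.8% of WT members and 37.2%, 26.2% and 23.5% of mutant members.

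**Figure D5:**
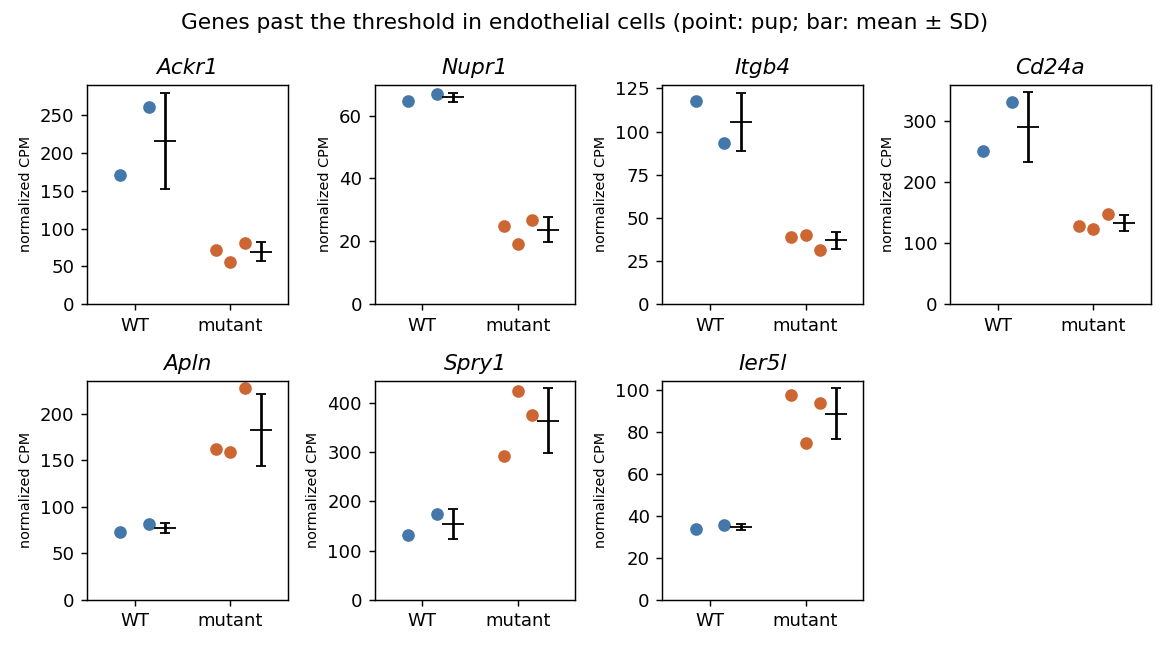
Normalized CPM in endothelial cells of the 7 genes past the threshold, 1 point per pup (WT n = 2, mutant n = 3), with black bars for mean ± SD and axes from 0. Ackr1, Nupr1, Itgb4 and Cd24a are lower, and Apln, Spry1 and Ier5l higher, in every mutant pup than in both WT pups.

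These calls rested on few pups. Of 12 alternatives, Ackr1 and Spry1 were called under 9, Itgb4 and Cd24a under 8, Ier5l under 7 and Apln under 6, and Nupr1 was called under 4 of the 11 that gave it an adjusted p. Apln, with a log2 change of 1.18 over all pups, lost its call without WT pup 1 (log2 change 1.13) or WT pup 2 (1.27). It also lost it without mutant pup 3 (1.27, adjusted p = 0.0940) or mutant pup 4 (1.27, adjusted p = 0.344). Leaving out mutant pup 4 left 0 genes past the threshold by edgeR, with 325 at an unadjusted p under 0.05, whereas leaving out mutant pup 5 gave 22, with the sex-linked Xist and Ddx3y among them. In WT pups against mutant pup 5 alone, all without Xist, 15 genes passed and 1 of the 7, Apln, was among them (log2 change 1.54, adjusted p = 0.0377). The first of the 15 included the lymphatic genes Mmrn1 and Lyve1, and 4 of the 34 members of pup 5 were lymphatic-like. There the single mutant pup is assumed to vary as the WT pups do. The other 6 were not called there but kept their direction. Their log2 changes, with those over all pups in brackets, were -1.451 for Ackr1 (-1.684), -1.749 for Itgb4 (-1.454) and -1.001 for Cd24a (-1.158). They were -1.306 for Nupr1 (-1.491), 1.262 for Spry1 (1.222) and 1.419 for Ier5l (1.358). Itgb4, Spry1 and Ier5l thus changed by more than over all pups, and Ackr1, Cd24a and Nupr1 by less.

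Genes next to the threshold are given as values. Kcnj2, an inward rectifier potassium channel, had a log2 difference of 1.38 (adjusted p = 0.102), Mcam, an adhesion molecule also known as CD146, 0.83 (adjusted p = 0.163), and Gm47283, which the annotation places on the Y chromosome, 2.56 (adjusted p = 0.163). Gm47283 was at 45.7 and 55.4 normalized CPM in the Xist-positive pups 3 and 4 and at 2.40, 10.2 and 13.4 in pups 1, 2 and 5. Below zero were Rcan1, a calcineurin inhibitor, at -0.77 (adjusted p = 0.163) and the dermal matrix gene Dpt at -2.40 (adjusted p = 0.226). Without the mixed sub-clusters Dpt fell below the filter on low counts and was not tested.

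The tip and angiogenic list had 8 of 10 genes with a positive log2 difference and a median of 0.51, where all genes tested had a median of -0.01. Without WT pup 2 the median was 0.83 with 9 of 10 positive, and without mutant pups 3 and 4 it was 0.74. All 3 mutant pups lay above both WT pups for 5 of the 10, against 10.5% of all genes tested, and 1, Apln, passed the threshold. Esm1, endocan, was at 93.5 and 65.5 normalized CPM in the WT pups and 143, 227 and 277 in the mutants (log2 difference 1.39, adjusted p = 0.191). Its groups did not overlap, and it passed under 5 of 12 alternatives. Pdgfb (0.47) and Nid2 (0.47), a basement membrane linker, had adjusted p of 0.893 and 0.798.

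Of 8 venous genes tested, 8 had a negative log2 difference with a median of -0.36, where 4288 of all 8449 genes were negative, and 1, Ackr1, passed. Without WT pup 2 the median was -0.15 with 7 of 8 negative, and without mutant pups 3 and 4 it was -1.05 with 6 of 8 negative. For 1 of them all mutant pups lay below both WT pups, against 10.2% of all genes tested. Aplnr (-0.25), Nrp2 (-0.10) and Nr2f2, a transcription factor of veins (-0.19), had adjusted p of 0.992, 0.997 and 0.993. None of the 10 arterial genes passed (median 0.14, 7 positive), and the median was -0.03 without WT pup 2 and 0.40 without mutant pups 3 and 4. For 3 of the 10, Jag1 among them, all mutant pups lay below both WT pups, against 10.2% of all genes tested. For 1 they all lay above, against 10.5%. Sema3g at -0.58 (adjusted p = 0.798) and Dll4 at 0.69 (adjusted p = 0.935) lay on opposite sides.

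Basement membrane genes had a positive log2 difference in 10 of 10 (median 0.28), where 4161 of all 8449 genes were positive. All mutant pups lay above both WT pups for 7 of the 10, against 10.5% of all genes tested, and none passed the threshold. Without TMM scaling 9 of 10 were positive, and without mutant pups 3 and 4 the median was 0.18. Col4a1 was 0.27 (adjusted p = 0.935) and Lamc1, a laminin chain, 0.40 (adjusted p = 0.849). In the VEGF list of 9 tested genes none passed, and the median was 0.07. That median was 0.21 without WT pup 2, 0.28 without mutant pups 3 and 4, and 0.01 without mutant pup 5. Kdr was at 0.37 (adjusted p = 0.799) with every mutant pup above both WT pups.

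No gene passed in the Notch (11 tested, median 0.30), bone morphogenetic protein and TGF-beta (12, 0.08), angiopoietin-Tie (4, -0.22), junction (6, 0.04), flow and mechanical response (9, -0.01), angiocrine (9, -0.19), capillary and lipid (6, 0.20), sinusoidal (4, -0.13), lymphatic (7, -0.42) or core endothelial (18, 0.09) lists. Several of these medians changed sign with the pups used. The core endothelial median was -0.009 without WT pup 2 and -0.07 without mutant pups 3 and 4. The flow and mechanical response median was 0.12 without WT pup 1. The lymphatic median was 0.30 without mutant pup 3, 0.27 without mutant pup 4, -2.53 without mutant pup 5, 1.40 without mutant pups 3 and 4, and 0.02 with DESeq2. The capillary and lipid median was -0.10 without WT pup 1, 0.49 without WT pup 2, -0.04 without mutant pup 3 and -0.46 without mutant pups 3 and 4. The sinusoidal median was 0.21 without WT pup 2 and 0.64 without mutant pups 3 and 4, and the Notch median was -0.10 without those mutant pups. Jag1, a Notch ligand, was at 127 and 128 normalized CPM in the WT pups and 72.7, 74.5 and 76.0 in the mutants. Its log2 difference of -0.79 did not pass (adjusted p = 0.226) although the groups were apart. The adhesion and inflammation list held Ackr1 as its 1 called gene of 11 (median -0.09, 0.10 without WT pup 1 and -0.25 without mutant pups 3 and 4), and E-selectin, Sele, was at -0.62 (adjusted p = 0.993).

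Markers of other cells moved with the groups in part. The summed fibroblast and bone list was at 21652 and 15007 CPM in the WT pups and 16480, 11792 and 23787 CPM in the mutants, so the groups overlapped. Of its 6 tested genes, 6 had a negative log2 difference (median -0.62), 4 had an unadjusted p under 0.05 and none passed. For 3 of the 6 all mutant pups lay below both WT pups, against 10.2% of all genes tested. Without mutant pups 3 and 4 the median was -0.30 with 4 of 6 negative. Without the mixed sub-clusters 5 were tested, 2 of them negative, with a median of 0.10. The summed erythroid list was at 3656 and 23663 CPM in the WT pups and 9151, 7334 and 3636 CPM in the mutants, and the summed pericyte list at 197 and 545 CPM against 643, 717 and 124. The erythroid median was -1.05, and it was 0.85 without WT pup 2 and -1.77 without mutant pups 3 and 4. The pericyte median was 0.07, and it was -1.13 with 7 of 7 genes negative without mutant pups 3 and 4. The macrophage list held 0 to 6.64 CPM with C1qa and C1qb at 0, and the megakaryocyte list 0 to 5.77 CPM with 4 of 6 genes at 0. The Schwann cell list held 0 to 11.3 CPM, the blood progenitor list 38.9 to 93.3 CPM with Mpo at 0, and the chondrocyte list 1245 to 1540 CPM. The list of genes induced by tissue dissociation, such as Fos and Zfp36, was at 16290 and 12625 CPM in WT and 15256, 17729 and 19343 CPM in mutants, with none of 15 past the threshold (median 0.18). Of the 15, 13 had a positive log2 difference, where 4161 of all 8449 genes were positive. The dissociation median was 0.29 with 15 positive without WT pup 1, and 0.02 with 9 positive without WT pup 2. The part of these cells and of dissociation in the called genes was not tested.

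Shares of members with marker sets were compared last. Cycling members (at least 3 of 12 cell cycle genes detected) made up 39.4% and 44.0% of members in the WT pups and 38.3%, 35.7% and 29.4% in the mutants. That difference of -7.18 percentage points (exact permutation test, p = 0.2) changed sign at equal depth. Thinned to 3000 UMIs a cell, which left 94 and 141 WT and 167, 76 and 29 mutant members, the shares were 20.2% and 19.1% in WT and 28.7%, 27.6% and 24.1% in mutants. The difference was then 7.16 percentage points, with no overlap between groups (exact permutation test, p = 0.1, the smallest the design allows). The summed cell cycle list was at 1152 and 1150 CPM in WT and 1161, 1342 and 1319 CPM in mutants, and none of its 12 genes passed. The dividing cells of sub-cluster 7 made up 7.45% and 7.09% of members in the WT pups and 7.78%, 8.33% and 5.88% in the mutants, so there the groups overlapped. Without mutant pups 3 and 4 the difference in the unthinned share was -12.25 percentage points.

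Arterial members (at least 2 of 10 genes) made up 73.4% ± 4.51 (SD, n = 2) in WT and 68.7% ± 9.62 (SD, n = 3) in mutants (exact permutation test, p = 0.5). After thinning the means were 43.1% and 54.4%, in the opposite order (p = 0.2, exact permutation test). Sinusoidal or lymphatic members (at least 2 of 7 genes) made up 33.7% ± 5.52 in WT and 21.3% ± 6.11 in mutants (exact permutation test, p = 0.2), and 17.0% and 11.7% after thinning. Without mutant pups 3 and 4 the unthinned differences were 6.01 percentage points for arterial and -16.04 for sinusoidal or lymphatic members. After thinning, sinusoidal or lymphatic members made up 17.2% in mutant pup 5 and 17.0% in each WT pup. Thinned arterial members made up 69.0% in mutant pup 5, against 43.6% and 42.6% in WT pups 1 and 2. Many cells sat at the cut: 118 of 371 arterial, 49 of 208 cycling and 106 of 153 sinusoidal or lymphatic members had exactly the number of genes needed. With 1 more gene needed, the differences were -0.0426 percentage points for arterial, -4.40 for cycling and -5.67 for sinusoidal or lymphatic members. A share close to a cut of this kind marks a range of cells and not a cell type.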

How the data were processed

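Single-cell RNA of growth plate cells from 5 pups (2 WT, 3 mutant) was captured by the study with BD Rhapsody HT Express. The authors deposited raw UMI counts per gene and cell, made with the vendor's pipeline (version not given in the sources used here); the submitters' notes name build mm10. Gene positions are from GENCODE M21 (GRCm38, the same build).

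Cells with 200 to 6000 genes and at most 10% mitochondrial UMIs were kept, and members were selected by the rule given above. No doublet caller was run. The members and gene lists were chosen with earlier results of these data known. Sub-clusters came from scanpy 1.11.5 (1500 variable genes, 20 components, 15 neighbours, Leiden resolution 0.8). Counts summed by pup were tested with edgeR 4.0.16 (TMM, filterByExpr, quasi-likelihood); DESeq2 1.42.0 was an alternative. Shares were compared with 2-sided exact permutation tests. Where nothing shows separate handling, p-values measure the spread between pups, each with 1 library.

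Genes named are the gate genes and Kdr, members of each list with the highest mean CPM, any list gene past the threshold, the 10 leading genes, all genes past the threshold, and the 3 lowest p-values not past it in each direction. Others (such as sub-cluster leaders) were chosen after their values were seen, and some results are not reported here. Member sums were 225254 to 1505538 UMIs a pup, the lowest in mutant pup 5.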

Additional observations from a re-analysis of the deposited data

How the results depend on the processing

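The endothelial share kept its direction under every alternative tried: leaving out 1 pup each gave differences of -0.379 to -0.0313 percentage points. No share comparison could pass 0.05 with 5 pups, so those p-values say nothing about stability. Reversed differences (mutant minus WT, percentage points) were 7.16 for cycling and 11.3 for arterial cells, each thinned to 3000 UMIs. Without mutant pups 3 and 4 the arterial difference was reversed too, at 6.01. The depth of the members differs between groups. Thinning also left out 13, 8 and 5 members of mutant pups 3, 4 and 5, and 0 of each WT pup. The cause of these reversals was not tested. Against 7 genes called, 44 passed with no filter on low counts, 14 with DESeq2 (9 higher in mutants), 12 without the mixed sub-clusters (an alternative chosen after seeing the data), 15 without mutant pups 3 and 4, and 0 to 22 with 1 pup left out. Of the 7, 2 were called without WT pup 1 (14 calls), 3 without WT pup 2 (6 calls), 1 without mutant pup 3 (4 calls), 0 without mutant pup 4 and 7 without mutant pup 5; the cause was not tested. The 7 kept their sign under every alternative that gave an adjusted p. For each of them every mutant pup lay beyond both WT pups, so leaving pups out could not have turned a sign. Over 12 alternatives the adjusted p ran from 7.95e-11 to 0.344 for Ackr1 and from 6.43e-06 to 0.561 for Spry1. DESeq2 gave no adjusted p for Nupr1. No paired analysis was possible because the labels number the pups 1 to 5 across both groups, so no number is shared. Depth limits mutant pup 5 most, with 34 members.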

Other observations

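A looser mitochondrial or Col2a1 limit kept more cells that carried the gate genes. Whether these were endothelial cells or doublets was not tested. A limit of 20% mitochondrial UMIs gave a mean endothelial share of 0.860% in WT and 0.596% in mutants, and no Col2a1 limit gave 0.828% and 0.612%. Fgf23, a hormone of phosphate balance known from bone cells, had a UMI in 9.78% of venous-like members, where it stood at 371 CPM, and in 1.59% of the other members (4.68 CPM). Slc45a3 was at 274 CPM in the lymphatic-like cells and at 0 in the other members, and Reln, the secreted protein reelin, at 667 CPM against 2.31. These genes were picked after their values were seen and were used to build the sub-clusters, so they are given without a test.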
